A study of Mus musculus with 32 samples.

Results

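SRSF5 knockdown in mouse P19 embryonal carcinoma cells is described here in whole-cell and in cytoplasmic poly(A)+ RNA, by gene level, exon usage and 3′ end choice. The libraries were taken by their labels: 2 SRSF5 knockdown and 2 GFP control libraries in each fraction, which is 8 of the 32 libraries in the series. P19 cells were transfected with esiRNA against Srsf5 or with esiRNA against GFP, a gene the cells do not carry, and were collected after 36 h. The other 24 libraries come from cells depleted of SRSF1, SRSF2, SRSF3, SRSF4, SRSF6 or SRSF7 in the same manner and serve below only as further points of reference. Replicates carry the letters A and B, and the series' design text lists 2 biological and 2 technical replicates per condition without saying which of these a letter marks, so that p-values measure the spread between these libraries. The question behind the design is which transcripts depend on each SR protein for their level, their processing or their presence in the cytoplasm.

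SR proteins bind RNA through RNA recognition motifs and contact other splicing factors through a domain rich in serine and arginine. They promote the recognition of exons, and several of them shuttle to the cytoplasm and act as adaptors for the mRNA export receptor NXF1. SRSF5, also called SRp40, is one of the smaller members of the family, and, as for other SR genes, some of its own transcripts keep an intron or carry a premature stop codon and are subject to nonsense-mediated decay. An esiRNA is a mixture of short double-stranded RNAs cut enzymatically from a longer one, so the transfected cells are a transiently depleted population and not a null line.

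The libraries held 27057659 to 34393468 reads on genes in whole cells and 28637279 to 48585735 in the cytoplasm. Gene values are given as scaled reads, which are reads per gene divided by a size factor of the library. Of 10 defining markers of P19 cells, 9 exceeded 100 scaled reads in all 4 libraries of each fraction. The exception was Zfp42, a gene of naive pluripotent cells, which had 22.6 and 27.8 scaled reads in SRSF5 knockdown whole cells, against 19.05 and 23.7 in GFP. Pou5f1, the central transcription factor of pluripotent cells, had 37255 and 27279 scaled reads in SRSF5 knockdown whole cells, against 31337 and 30153 in GFP. Malat1, a nuclear long noncoding RNA, had 245 and 66.7 scaled reads in the cytoplasm of SRSF5 knockdown cells, against 278 and 89.8 in GFP, while whole cells held 8211 and 11063, against 13129 and 11540. Transcripts of pancreatic enzymes were seen almost only in the cytoplasmic libraries of letter A: their sum was 708 and 41.8 scaled reads in SRSF5 knockdown, against 650 and 48.8 in GFP, for letters A and B in that order. Secretoglobin and salivary gland transcripts summed to 1242 and 0 scaled reads in the cytoplasm of SRSF5 knockdown cells, against 1073 and 0 in GFP, so both arms of letter A carried them. Blood and liver transcripts summed to 543 and 59.4, against 476 and 30.2. Their part in other results was not tested.

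The targeted gene was lower after SRSF5 knockdown in both fractions and in both letters, to about the same degree. Srsf5 had 4657 and 3383 scaled reads in SRSF5 knockdown whole cells, against 8285 and 8203 in GFP. Its mean was 48.8% of GFP, with 56.2% in letter A and 41.2% in letter B. None of the 12 whole-cell libraries of the other knockdowns came near: they lay between 7192 and 11277, with a median of 9226. In the cytoplasm, Srsf5 had 1356 and 474 scaled reads in SRSF5 knockdown cells, against 2378 and 1361 in GFP, or 48.9% of GFP. There the groups did not overlap, but the SRSF5 library of letter A lay close to GFP of letter B and within the other knockdowns, which spanned 917 to 4810, and letter A exceeded letter B in every condition. Such separation was common: the groups did not overlap for 22% of the genes tested in whole cells and 24.8% of those in the cytoplasm.

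The log2 change of Srsf5 was −1.05 ± 0.19 in whole cells (SE, n = 2 each, 95% interval −1.46 to −0.65) and −1.16 ± 0.73 in the cytoplasm (95% interval −2.75 to 0.43). These errors come from the fit that leaves out the replicate letter. With the letter as a block the SE was 0.11 in whole cells and 0.19 in the cytoplasm. In fits without the block, each library weighed on the cytoplasmic value. It was −1.93 without the SRSF5 library of letter A and −0.41 without that of letter B. It was −0.75 without the GFP library of letter A and −1.56 without that of letter B. In the limma fit over all 16 libraries of a fraction, on log2(scaled reads + 1), neither passed after adjustment over all genes (adjusted p = 0.9998 in whole cells and 0.99999 in the cytoplasm). The replicate letters paired the libraries, and with the letter as a block Srsf5 was called lower in whole cells (limma, adjusted p = 9.82e-04). The same block over all 16 libraries left the cytoplasmic change uncalled (limma, adjusted p = 0.297), whereas a fit of only the 4 SRSF5 and GFP libraries with the block called it (limma, adjusted p = 5.17e-07). DESeq2 on recovered reads also called the whole-cell change (adjusted p = 0.00542).

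Against the mean of the other 6 knockdowns, a contrast without the GFP libraries, Srsf5 was lower by −1.23 on the log2 scale in whole cells (limma, adjusted p = 0.0300). Leaving out either SRSF5 library ended this call, with an adjusted p of 0.0692 without letter A and 0.318 without letter B. In the cytoplasm the difference was −1.39, which passed only with the letter as a block (limma, adjusted p = 0.00104). The ratio of cytoplasm to whole cell did not move detectably for Srsf5: its change was −0.13 on the log2 scale (limma interaction, unadjusted p = 0.873). The plot of levels by esiRNA target shows all groups side by side. In bulk RNA, fewer cells that express a gene and less RNA per cell cannot be told apart.

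**Figure D1:**
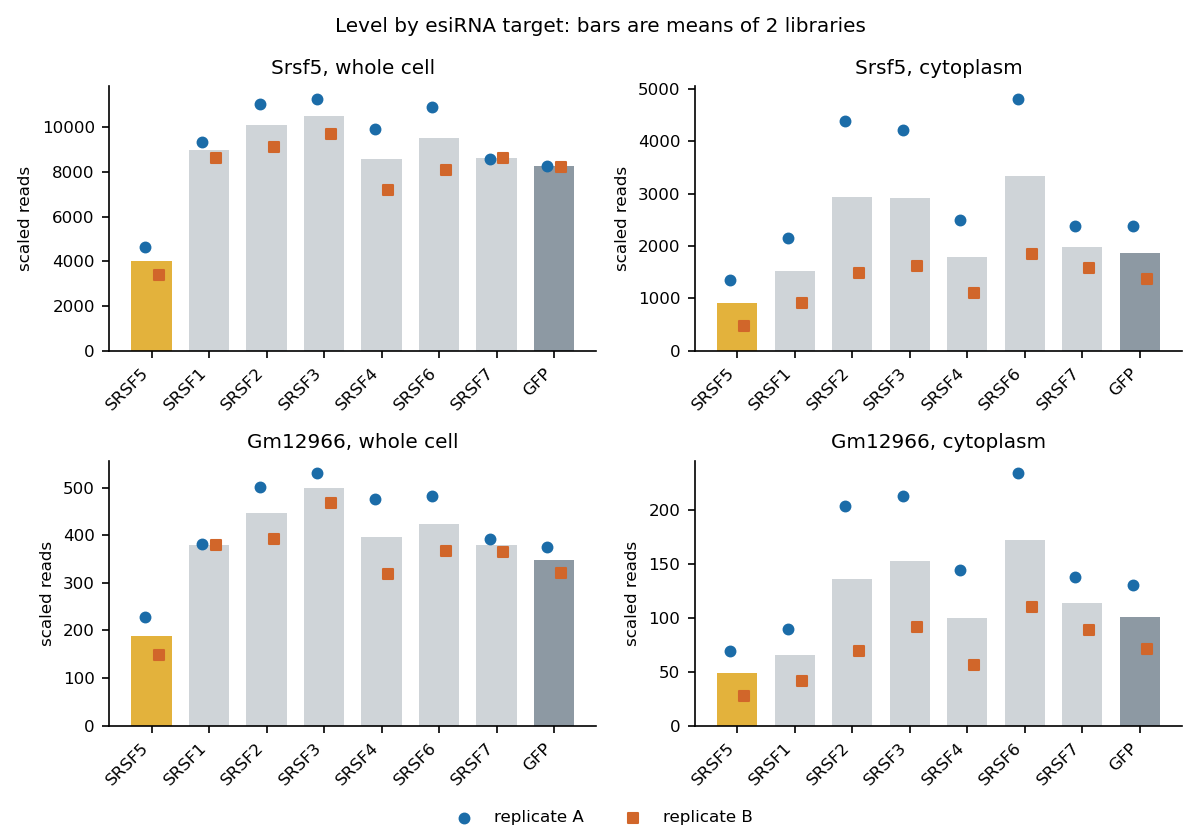
Scaled reads of Srsf5 (top) and of its pseudogene copy Gm12966 (bottom) in whole cells (left) and cytoplasm (right), by esiRNA target; bars are means of 2 libraries and points are the libraries of letters A and B. Both SRSF5 knockdown libraries have the lowest Srsf5 of all whole-cell libraries, at 4657 and 3383, against 8285 and 8203 in GFP.

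Gm12966 had lower values together with Srsf5 and shares most of its sequence. It is a processed pseudogene, a retrocopy of a spliced mRNA, at mm9 chr4:129576337-129577146 on the plus strand. Over its 810 bases, 802 (99.01%) were identical to an annotated Srsf5 mRNA on chromosome 12, with 8 mismatches and no gap. Of its 736 windows of 75 bases, which is the shorter read length used, 338 (45.9%) occurred unchanged in the Srsf5 mRNA. The sequences below show 2 stretches of 30 bases in which the copies differ, with the differing base in capitals; Gm12966 lies at chr4:129576371-129576400 in the first pair and at chr4:129576431-129576460 in the second, both plus strand in mm9, and the Srsf5 lines are mRNA positions 223 to 252 and 283 to 312.
Srsf5, first stretch: atccagcagcgagggAgaaagatgtggaaa
Gm12966, first stretch: atccagcagcgagggTgaaagatgtggaaa
Srsf5, second stretch: atattgacttgaaaaGaggttttggttttg
Gm12966, second stretch: atattgacttgaaaaCaggttttggttttg

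Gm12966 had 228 and 149 scaled reads in SRSF5 knockdown whole cells, against 376 and 320 in GFP. In the cytoplasm it had 69.3 and 27.9, against 131 and 71.2. The SRSF5 values lay below GFP of the same letter in all 4 pairs, at 54.2% of the GFP mean in whole cells and 48.0% in the cytoplasm. Its log2 change in whole cells was −0.91 ± 0.23 (SE, n = 2 each), which did not pass in limma over all 16 libraries with the letter block (adjusted p = 0.0821) but passed with the block over only the 4 SRSF5 and GFP libraries (limma, adjusted p = 0.00468), as it did in the cytoplasm (adjusted p = 0.0356), while against the other 6 knockdowns it was −1.17 and passed with that block (adjusted p = 8.03e-05). Reads from the 2 loci cannot be told apart over the identical windows, so the pseudogene's values are not independent of those of Srsf5.

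Within the Srsf5 gene, the exons shared by most transcripts fell to about the same level as the gene itself. In the group means the retained intron was lower still, but not in letter B of whole cells. DEXSeq had divided the gene, at mm10 chr12:80945504-80950507 on the plus strand, into 31 bins over 12 annotated transcripts. The 9 bins shared by at least 9 transcripts and at least 30 bases long together stood at 50.8% of GFP in whole cells and 48.0% in the cytoplasm. In single such bins, letter A ranged from 61.6% to 67.4% of GFP in whole cells and letter B from 34.9% to 45.7%. All 9 bins were lower relative to GFP in letter B than in letter A in whole cells, and 8 of the 9 in the cytoplasm.

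The retained intron, bins E023 and E024 at chr12:80947866-80949094, stood at 31.2% of GFP in whole cells and 21.6% in the cytoplasm. Its larger bin, E024, had 284 and 293 scaled reads in SRSF5 knockdown whole cells, against 1064 and 767 in GFP. That is 26.7% of GFP in letter A and 38.2% in letter B, where it lay within the range of the shared bins given above. The alternative exon end E011, at chr12:80945673-80945798, had 103 and 135 scaled reads in SRSF5 knockdown whole cells, against 305 and 412 in GFP, which is 33.1% of GFP. Neither bin overlapped between the groups in whole cells, as was so for 25.4% of all whole-cell bins tested. Bins outside the shared exons did not all follow: E012 overlapped, with 15.5 and 21.3 scaled reads in SRSF5 knockdown whole cells, against 27.6 and 18.0 in GFP.

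Relative to the constitutive exons the picture was less clear. Intron reads per 100 constitutive reads were 4.25 and 6.64 in SRSF5 knockdown whole cells, against 10.6 and 6.57 in GFP, so that letter B did not differ. The other 12 whole-cell libraries spanned 4.43 to 13.8, with a median of 7.83. In the cytoplasm the ratio was 0.517 and 1.05 in SRSF5 knockdown cells, against 1.51 and 1.36 in GFP, below GFP in both letters but resting on 10 and 11 intron reads. The relative usage of E024 was −0.66 on the log2 scale in whole cells and was not called by limma diffSplice (unadjusted p = 0.0228, adjusted p = 1).

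The transcript estimates, which the authors pooled over replicates and which carry no error, were lower for most transcripts. The main coding transcript ENSMUST00000094693 had 33.1 FPKM in SRSF5 knockdown whole cells, against 56.9 in GFP. Of the transcripts annotated as intron-retaining, ENSMUST00000153056 had the most, with 4.36 FPKM, against 16.7 in GFP, or 26.1%. The others were scarce and not lower: ENSMUST00000151036 had 0.704, against 0.669, and ENSMUST00000133783 0.115, against 0.0704. Of those annotated as targets of nonsense-mediated decay, ENSMUST00000125814 had 2.87 FPKM, against 8.38 in GFP, or 34.3%. The scarcer ENSMUST00000138434 had 0.646, against 0.682. Coding transcripts differed among themselves: in whole cells ENSMUST00000110356 was at 37.5% of GFP and ENSMUST00000110352 at 81.9%. These shares were not tested, since each group has 1 pooled value.

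**Figure D2:**
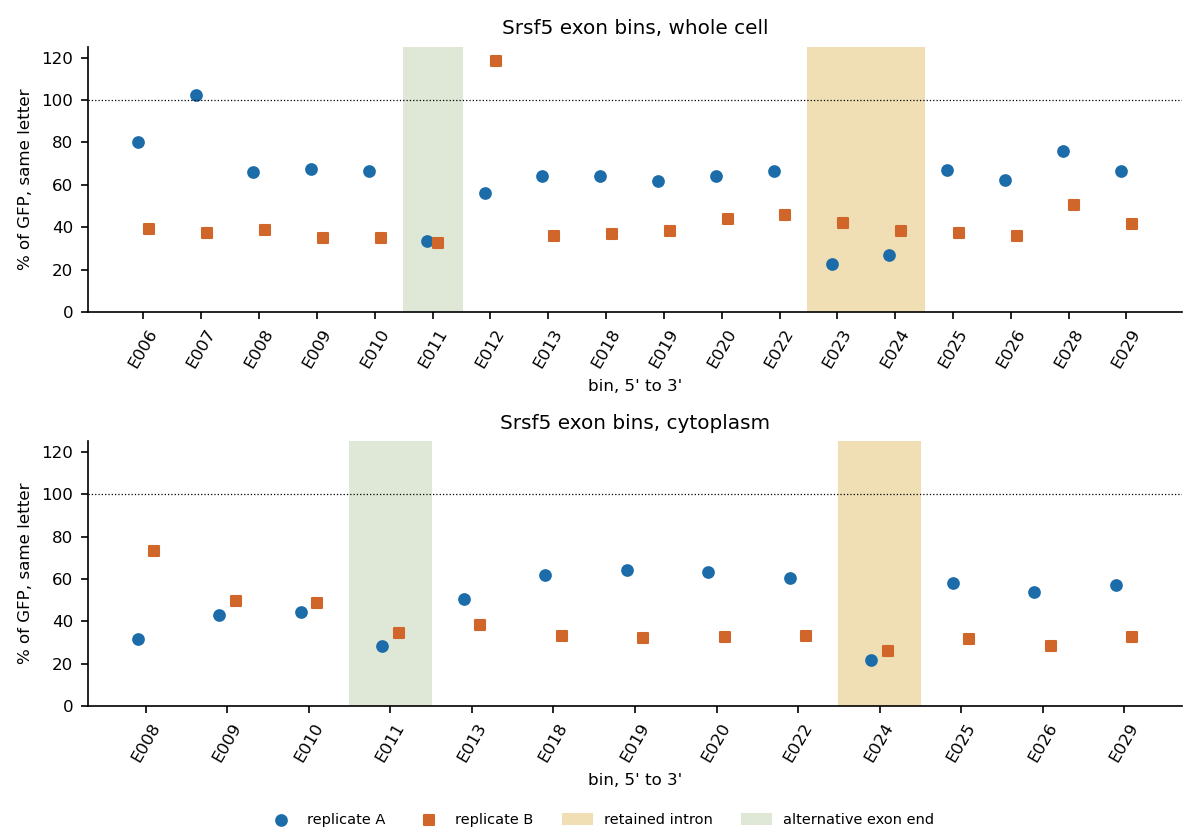
Scaled reads in Srsf5 exon bins after SRSF5 knockdown, as a percentage of the GFP library of the same letter, for bins with a GFP mean of at least 20; bins run 5′ to 3′, circles are letter A and squares letter B, and shading marks the retained intron and the alternative exon end. In whole cells the constitutive bins lie at 61.6% to 67.4% in letter A and at 34.9% to 45.7% in letter B.

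Among the other SR genes no change passed the fit over all 16 libraries. Apart from Srsf5, the 10 measured members (Srsf1, Srsf2, Srsf3, Srsf4, Srsf6, Srsf7, Srsf9, Srsf10, Srsf11 and Srsf12) had log2 changes between −0.11 and 0.33 in whole cells and between −0.16 and 0.56 in the cytoplasm, and none passed in limma over all 16 libraries with or without the letter block. The largest was Srsf2, a splicing activator with a single recognition motif, which had 10596 and 3800 scaled reads in the cytoplasm of SRSF5 knockdown cells, against 5036 and 3729 in GFP. It was called only in the fit of the 4 libraries with the block (limma, adjusted p = 0.0265). The next was Srsf7, with 6784 and 3326, against 3572 and 3637. In both genes the library of letter A was high and that of letter B lay near GFP.

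This split ran through the family. In whole cells, Srsf7 had 6275 and 4076 scaled reads in SRSF5 knockdown, against 3940 and 4091 in GFP. Srsf1 had 13800 and 11475, against 10137 and 11450. Srsf6 had 12369 and 7933, against 9336 and 7813. Letter A alone carried the higher values in each case. Without the SRSF5 library of letter A the sign turned for Srsf2, Srsf3, Srsf4, Srsf6 and Srsf9 in whole cells. In the cytoplasm it turned for Srsf1, Srsf2, Srsf3, Srsf4, Srsf6, Srsf7, Srsf9, Srsf11 and Srsf12, of which Srsf12 turned the other way, to a higher value. Those fits had no letter block, so SRSF5 of letter B was set against GFP of both letters. A sign that turned in them need not turn within letter B, where Srsf6 had 7933, against 7813, in whole cells. The intervals bound what a 2-against-2 comparison without the letter block could miss: the whole-cell 95% interval was −0.20 to 0.20 for Srsf10 and −0.22 to 0.89 for Srsf7.

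**Figure D3:**
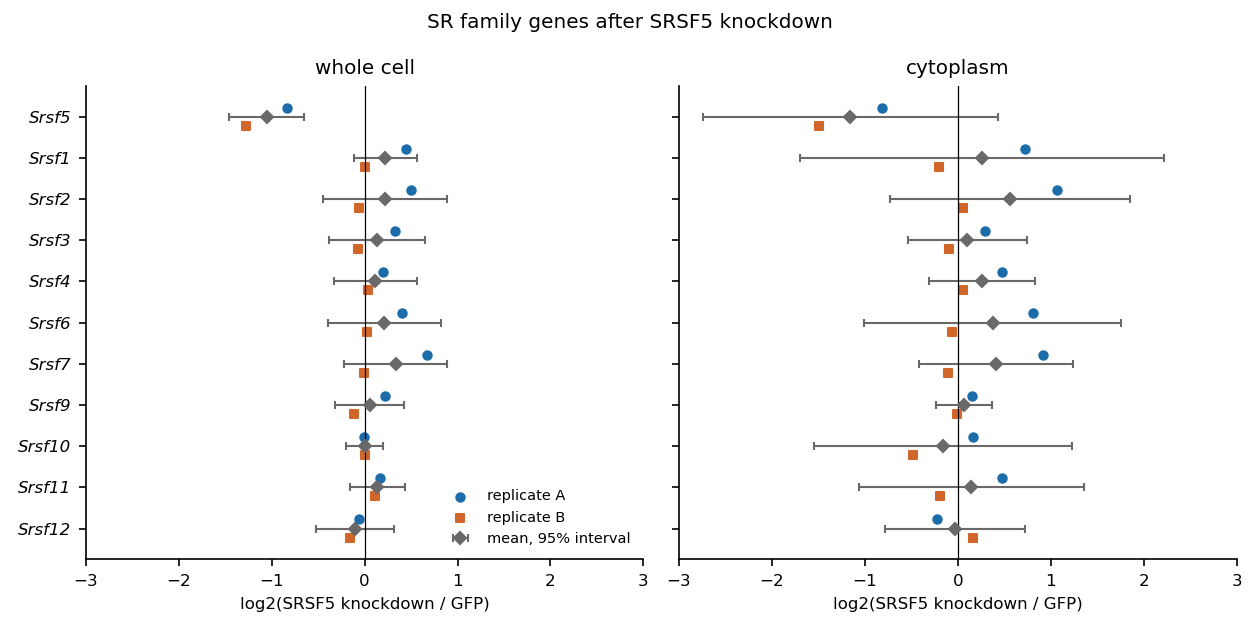
log2 change of SR family genes after SRSF5 knockdown relative to GFP in whole cells (left) and cytoplasm (right). Diamonds with bars are limma estimates with 95% intervals from the fit without the letter block, circles letter A and squares letter B. Srsf5 lies at −1.05 in whole cells and −1.16 in the cytoplasm, while the intervals of all 10 other members include 0.

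Across the transcriptome, 0 of 18540 genes tested in whole cells and 0 of 17563 in the cytoplasm passed an adjusted p of 0.05 in the limma fit (background 0% called in each). At an unadjusted p under 0.05 there were 158 higher and 170 lower genes in whole cells (1.77%), and 111 higher and 104 lower in the cytoplasm (1.22%). edgeR's quasi-likelihood test called 0 genes in both fractions. With the letter as a block limma called 1 gene in whole cells (0.00539%), Srsf5, and 0 in the cytoplasm, and DESeq2 called 1 gene in each, of which the whole-cell one was Srsf5. The cytoplasmic one has no gene symbol in the tables used.

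The count also moved with the model: the block over only the 4 SRSF5 and GFP libraries gave 22 calls in whole cells and 78 in the cytoplasm. The 95% interval of the fit without the letter block stayed within 2-fold either way for 14055 genes (75.8%) in whole cells and for 10456 (59.5%) in the cytoplasm. Within 1.5-fold it stayed for 9408 (50.7%) and 3892 (22.2%). Changes of 2-fold thus lay outside the interval of most genes, and changes of 1.5-fold lay inside it for most cytoplasmic genes.

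Against the other 6 knockdowns, 2 genes were lower in whole cells (0.0108% called), Srsf5 and Vmn2r18, a vomeronasal receptor gene. Vmn2r18 was listed at 0 in both SRSF5 knockdown libraries, against 3.14 to 13.4 scaled reads (median 7.21) in the 12 other libraries and 2.24 and 0.947 in GFP. Counting 3 reads over the 2 SRSF5 libraries as the floor, it was at least 5.31-fold lower than the mean of the other knockdowns. Its call was lost without either SRSF5 library (adjusted p = 0.722 without letter A and 0.318 without letter B), and in the cytoplasm the SRSF5 libraries held 1.15 and 2.93.

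With the letter block this contrast called 6 genes lower in whole cells (0.0324%) and none higher. Besides Srsf5, Gm12966 and Vmn2r18 they included Chrnb2 and Olfml3. Chrnb2, a nicotinic receptor subunit, had 66.0 and 79.6, against 73.2 to 738 in the other knockdowns and 71.7 and 78.6 in GFP, so SRSF5 knockdown cells did not stand apart from GFP for it. Olfml3 was near detection, with 1.89 and 3.70 in SRSF5 knockdown, against 3.37 to 702 in the other knockdowns. In the cytoplasm the block called Srsf5 and Gm12966 (0.0114%).

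The letters themselves gave a direct view of how repeatable single-gene changes were. Of the 12642 whole-cell genes that averaged 100 scaled reads or more, 83 differed by 2-fold or more between SRSF5 knockdown and GFP in letter A and 8 in letter B, and none did so in the same direction in both. In the cytoplasm, of 11767 such genes, 100 did so in letter A (56 higher, 44 lower) and 17 in letter B (all lower), again with none in both. The SD of the log2 changes over genes was 0.292 in letter A and 0.165 in letter B in whole cells. At 1.5-fold, 4 whole-cell genes (0.0316%) moved the same way in both letters: Srsf5 and Gm12966 lower, and Muc19 and Gm20498 higher.

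Muc19 carries the name of a gel-forming mucin, but its entry is annotated as a processed transcript. It had 502 and 605 scaled reads in SRSF5 knockdown whole cells, against 292 and 193 in GFP, and 104 to 667 in the other knockdowns. In the cytoplasm it was at 0 in the SRSF5 and GFP libraries. Gm20498 had 152 and 176, against 86.8 and 106 in GFP, and 96.6 to 212 in the other knockdowns. Both therefore lay within the range of the other knockdowns. Neither was called by limma over all 16 libraries, with or without the block.

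In the cytoplasm 27 genes (0.229%) moved by 1.5-fold the same way in both letters, 5 higher and 22 lower. Among the higher was Pcsk1n, an inhibitor of a prohormone convertase, with 271 and 254 scaled reads in SRSF5 knockdown cells, against 145 and 151 in GFP. Nynrin had 537 and 425, against 316 and 264. Fam3c, a secreted cytokine-like protein, had 406 and 304, against 267 and 201. The groups did not overlap for these 3 genes, as for 24.8% of all cytoplasmic genes tested.

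The lower set held Psmc6, a subunit of the proteasome, with 1377 and 1065 scaled reads in SRSF5 knockdown cells, against 2076 and 1678 in GFP. Taf1d, a factor of RNA polymerase I transcription, had 451 and 253, against 775 and 468. Twistnb, a subunit of that polymerase, had 328 and 302, against 568 and 488. Zdhhc20, a palmitoyltransferase, had 73.9 and 63.8, against 138 and 126. None of the 27 was called by limma over all 16 libraries, and a fold fixed in each letter is a description and not a test. Of 6968 genes that averaged 500 scaled reads or more in both fractions, 1, Srsf5, met 1.5-fold in both letters of both fractions.

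**Figure D4:**
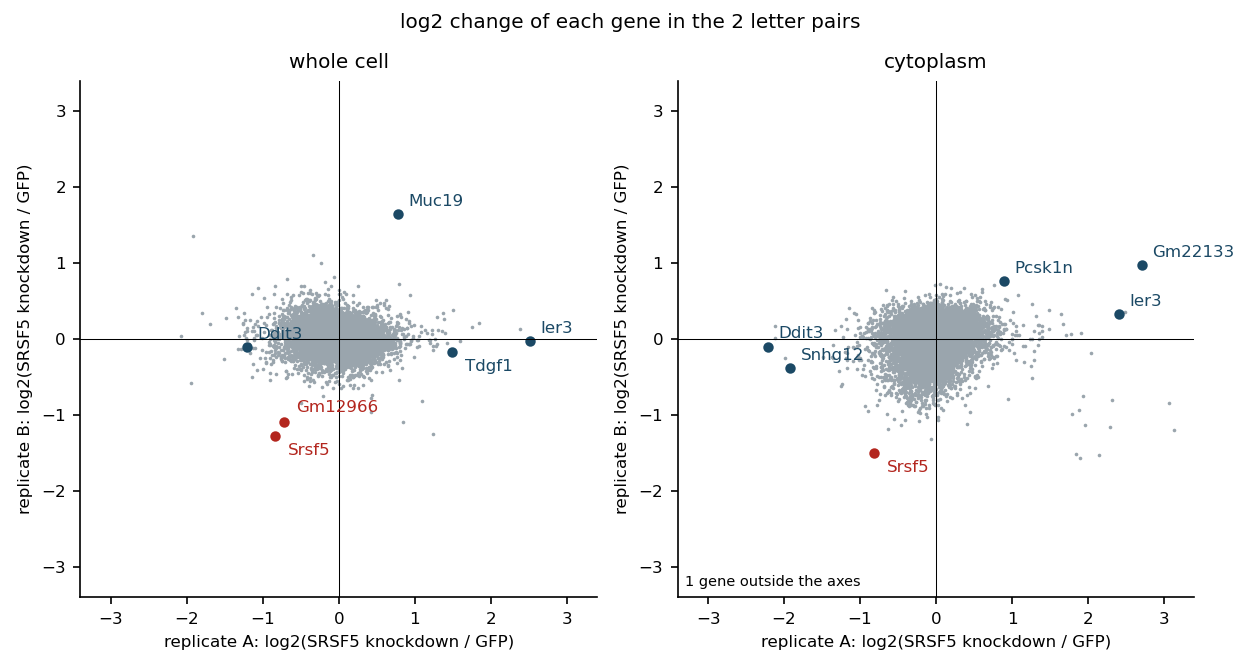
log2 change of each gene that averaged 100 scaled reads or more after SRSF5 knockdown relative to GFP, in letter A (horizontal) and letter B (vertical), for 12642 genes in whole cells and 11767 in the cytoplasm, of which 1 lies outside the axes. Srsf5 is low on both axes, whereas Ier3 and Ddit3 move along the axis of letter A.

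Genes that moved in letter A alone included stress and growth genes. Ier3, an immediate early gene, had 1148 and 306 scaled reads in SRSF5 knockdown whole cells, against 199 and 313 in GFP. Its SRSF5 value of letter A also exceeded the other knockdowns, which reached 515. Ddit3, the stress-induced factor CHOP, had 845 and 1904, against 1947 and 2055. Bhlhe40, a transcriptional repressor induced by hypoxia and other stimuli, had 1968 and 889, against 374 and 811. In all 3 genes the library of letter B lay near GFP.

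For other genes the GFP library of letter A was the lowest of the SRSF5 and GFP libraries. T, the mesoderm factor Brachyury, had 2745 and 2925 scaled reads in SRSF5 knockdown whole cells, against 902 and 2970 in GFP. Tdgf1, the Nodal co-receptor Cripto, had 3777 and 2799, against 1339 and 3168. The other knockdowns spanned 509 to 3466 for T and 799 to 2994 for Tdgf1 in whole cells. The GFP values of letter A lay within these ranges. For Tdgf1, SRSF5 of letter A and GFP of letter B lay above the range. Transcripts that normally lack a poly(A) tail marked the cytoplasmic SRSF5 library of letter A: Rpph1, the RNA of RNase P, had 413 and 27.9 scaled reads in SRSF5 knockdown cytoplasm, against 46.0 and 66.4 in GFP, and was chosen after its values were seen. Rn7sk, the 7SK RNA, had 375 and 43.3, against 103 and 127. Cers1, a ceramide synthase, was nearly absent from the same library, with 0.784 and 166 scaled reads in SRSF5 knockdown, against 121 and 149 in GFP. What part these library differences had in the other results was not tested.

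The gene lists, which cover SR protein function and also other processes and cell types, held no member called over all 16 libraries other than Srsf5. Of 333 genes in 23 lists, 282 were tested in whole cells and 300 in the cytoplasm, and limma called 0 of them in each fraction, and with the letter block 1 in whole cells and 0 in the cytoplasm. At an unadjusted p under 0.05 with that block, 19 members were higher and 15 lower in whole cells (12.1% of the members, against 6.26% of all genes tested). In the cytoplasm 11 were higher and 9 lower (6.67%, against 5.1% of all genes). The lists were chosen with earlier results of these data known, so these shares do not test whether the lists are enriched. The medians of the lists with at least 5 measured members ran between −0.18 and 0.23 in whole cells and between −0.52 and 0.41 in the cytoplasm, beside medians of −0.002 and −0.005 over all genes tested.

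The splicing lists lay close to 0. The 24 SR-related proteins had a median log2 change of 0.04 in whole cells and −0.04 in the cytoplasm. Luc7l, a homolog of a yeast U1 snRNP protein, had 3219 and 3472 scaled reads in SRSF5 knockdown whole cells, against 3702 and 4200 in GFP, a change of −0.24 with no overlap. Among the 8 measured kinases of SR proteins, Clk1 had 2703 and 2477, against 2748 and 3355, a change of −0.23. The 28 hnRNP genes, many of which oppose SR proteins at splice sites, had medians of 0.07 and −0.02. Pcbp1, a poly(C)-binding member, had 18048 and 10408 in the cytoplasm, against 11551 and 10360.

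The 25 export factors had medians of 0.05 in whole cells and 0.06 in the cytoplasm. Thoc3, a subunit of the THO complex, had 3430 and 3134 scaled reads in SRSF5 knockdown whole cells, against 2616 and 2883 in GFP, a change of 0.26 without overlap. Fyttd1, an export adaptor, had 513 and 380 in the cytoplasm, against 670 and 562, a change of −0.47 without overlap. The 20 cleavage and polyadenylation factors had medians of 0.07 and 0.03, led by Rbbp6 at 0.20 in whole cells and by Cpsf2 at −0.23 in the cytoplasm. Of the 12 decay factors, Upf3b had 2028 and 2126 in whole cells, against 2477 and 2464, a change of −0.25 without overlap. None of the genes named in this and the preceding paragraph passed limma's adjusted threshold over all 16 libraries.

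RNAs that are known to be degraded by nonsense-mediated decay had the lowest list median, −0.52 over 8 measured members in the cytoplasm (−0.09 in whole cells), and none was called. Snhg12, a host gene of small nucleolar RNAs, had 637 and 2284 scaled reads in the cytoplasm of SRSF5 knockdown cells, against 2403 and 3025 in GFP, and 972 and 1337 in whole cells, against 1577 and 1799. The SRSF5 values were lower than all GFP values in both fractions. Snhg5, another such host gene, had 541 and 922 in the cytoplasm, against 1046 and 1182. The other knockdowns spanned 607 to 3354 for Snhg12 in the cytoplasm, a range that holds both SRSF5 and both GFP values. Of the 8 genes in the list of known SRSF5 splicing targets, Pparg was near detection, with 9.44 and 5.56 in SRSF5 knockdown whole cells, against 6.72 and 15.1 in GFP, and Mapt, the tau gene, had 69.8 and 101, against 106 and 112.

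Interferon-induced genes, which respond to double-stranded RNA, had a median of 0.00 over 17 measured members in whole cells and 0.04 over 15 in the cytoplasm. Targets of p53 had medians of −0.06 and −0.0007, with Ccng1, cyclin G1, at 1130 and 1134 scaled reads in SRSF5 knockdown whole cells, against 1349 and 1466 in GFP. The 21 pluripotency genes had a median of 0.05 in whole cells and 0.06 in the cytoplasm. Nuclear long noncoding RNAs had medians of −0.03 and −0.14, and Neat1, the RNA of paraspeckles, had 418 and 499 scaled reads in SRSF5 knockdown whole cells, against 576 and 732 in GFP, which were not called (limma with the block, unadjusted p = 0.00840). Mitochondrial transcripts had a whole-cell median of 0.23 over 6 members, led by mt-Nd2 with 105774 and 82315, against 81877 and 71338.

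The 2 fractions could be set side by side over 17030 genes tested in both. An unadjusted p under 0.01 with the letter block was reached in both fractions by 23 genes, all in the same direction, 9 higher and 14 lower. The fractions are not stated to come from separate cultures, so this is no independent repeat. Besides Srsf5 and Gm12966, the named examples were chosen after their values were seen. Nudcd3, a co-chaperone, had 4973 and 4619 scaled reads in SRSF5 knockdown whole cells, against 3932 and 3579 in GFP, and 6957 and 7077 in the cytoplasm, against 4862 and 4831. Usb1, an exonuclease that trims U6 RNA, had 988 and 983 in whole cells, against 650 and 724. Akt2, a kinase of insulin signaling, had 1988 and 2135, against 1585 and 1597. The groups did not overlap for these 3 genes, as for 22% of all whole-cell and 24.8% of all cytoplasmic genes tested.

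The other knockdowns place these genes differently from Srsf5. The 12 other whole-cell libraries had a median of 988 scaled reads for Usb1, 2026 for Akt2 and 4524 for Nudcd3, close to the SRSF5 values. The log2 difference from the other 6 knockdowns was −0.02 for Usb1, −0.002 for Akt2 and 0.08 for Nudcd3. Rnf157, a ubiquitin ligase, had 309 and 601 in SRSF5 knockdown whole cells, against 681 and 852 in GFP, while the other knockdowns spanned 144 to 946, a difference of −0.06. For all 4 genes the SRSF5 libraries lay within the range of the other knockdowns. For Srsf5 the same difference was −1.23, beyond that range.

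The cytoplasmic level relative to the whole cell, which the study used to look for export, changed for none of 19208 genes (0% called, limma interaction over all 32 libraries). At an unadjusted p under 0.05, 78 genes had a higher and 56 a lower relative cytoplasmic level, and edgeR's quasi-likelihood test likewise called 0 genes, with 63 and 56 at that unadjusted p. With the letter block 0 genes were called, with 121 and 185 at an unadjusted p under 0.05 (1.59%). Without the SRSF5 libraries of letter B, 1 gene was called lower, Cers1, whose cytoplasmic value in letter A is given above.

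Exon usage was compared within genes, each bin against the other bins of its gene, on the scaled counts of the 4 libraries of a fraction. In whole cells 0 of 180286 bins in 12982 genes passed an adjusted p of 0.1 in limma diffSplice (0% called), with 2803 at an unadjusted p under 0.05. edgeR also called 0, with 1240 at that unadjusted p. In the cytoplasm 4 of 148054 bins in 12253 genes passed (0.0027% called), all with higher relative usage after SRSF5 knockdown. They belong to Prpf8, Bag6, Atp5a1 and Chpt1.

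In Prpf8, the central protein of the spliceosome, bin E004 at mm10 chr11:75486890-75487080 had 28.4 and 16.9 scaled reads in SRSF5 knockdown cytoplasm, against 5.77 and 4 in GFP. Its relative usage was higher by 1.82 on the log2 scale (limma, adjusted p = 3.22e-05). In Bag6, a chaperone of newly made membrane proteins, bin E027 at chr17:35140472-35140489 had 115 and 128 scaled reads, against 27.7 and 41.0, a difference of 1.60 (adjusted p = 0.0487). The SRSF5 values exceeded the GFP values in both genes without overlap, and 27.2% of all cytoplasmic bins tested did not overlap in one direction or the other.

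In Atp5a1, a subunit of the mitochondrial ATP synthase, bin E003 had 565 and 433 scaled reads in SRSF5 knockdown cytoplasm, against 277 and 300 in GFP, a difference of 0.71 (limma, adjusted p = 0.0184). In Chpt1, an enzyme of phosphatidylcholine synthesis, bin E003 at chr10:88469514-88471387 had 678 and 414, against 111 and 312, a difference of 1.67 (adjusted p = 0.0878). The Chpt1 call was lost with the letter block (adjusted p = 0.220), which in turn added a neighboring Bag6 bin, E026. edgeR on the recovered reads called none of the bins (0 of 148054, with 719 at an unadjusted p under 0.05), and without the SRSF5 library of letter A limma called 0.

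The same bins in whole cells and in the other knockdowns put these calls in proportion. Bag6 bin E027 had 50.3 and 78.6 scaled reads in SRSF5 knockdown whole cells, against 30.9 and 29.95 in GFP, the same direction without a call (limma diffSplice, unadjusted p = 0.00142, adjusted p = 1). Prpf8 bin E004 had 43.5 and 56.4, against 43.0 and 30.9. As a share of its gene's reads in the cytoplasm, the Bag6 bin held 0.519% and 0.511% in SRSF5 knockdown cells and 0.126% to 1.09% in the other 12 cytoplasmic libraries (median 0.457%), against 0.143% and 0.179% in GFP. The Chpt1 bin held 52.2% and 39.6%, 16.7% to 73.8% in the other knockdowns (median 41.1%), and 14.6% and 28.1% in GFP. The Prpf8 bin held 0.0595% and 0.0358%, 0.0111% to 0.0589% in the others, and 0.0126% and 0.00903% in GFP. The Atp5a1 bin held 0.741% and 0.557%, 0.326% to 0.689% in the others, and 0.388% and 0.401% in GFP. In all 4 genes both GFP values lay below the median of the other knockdowns, and when the 12 other libraries entered the fit to share the spread, 0 bins were called.

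Isoform choice at the 3′ end was available as MISO estimates, the posterior mean share of the first isoform of an event with its 95% credible interval, from reads pooled over replicates. There is no test, and an event was counted when its share differed by at least 20 points with intervals that did not overlap. In alternative last exons 8 of 8280 events passed in whole cells (0.0966%) and 22 of 7768 in the cytoplasm (0.283%). In tandem 3′ UTRs 2 of 1175 passed in whole cells (0.17%) and 6 of 1175 in the cytoplasm (0.511%). The median absolute difference over all events was 1 point in each of the 4 comparisons, and 80.1% to 84.2% of events differed by 5 points or less.

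Of the 38 events that passed in either fraction, 0 passed in both. Among the last-exon events, 2 shifted to the distal and 6 to the proximal exon in whole cells, and 7 to the distal and 14 to the proximal exon in the cytoplasm, with 1 whose order is unknown. The 22 cytoplasmic events fell in 19 genes, since Pcm1, Acap1 and Trim2 had repeated events that share reads, so these counts are not of independent events. The other knockdowns, 4 for the Trim16 event and 6 elsewhere, give a further yardstick: the SRSF5 share lay beyond their range in 5 of the 8 and 11 of the 22 last-exon events, and in 2 of the 2 and 3 of the 6 tandem events.

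In whole cells the widest shift was in Trim16, a ubiquitin ligase, whose distal last exon took 69% of isoforms in SRSF5 knockdown, against 9% in GFP. It rested on 17 distal and 7 proximal reads in SRSF5 knockdown, against 0 and 11 in GFP. An event of the neighboring gene Fbxw10 passed too, at 60% distal, against 93%. It rested on 25 distal and 17 proximal reads in SRSF5 knockdown, against 18 and 0 in GFP. The distal forms of the Trim16 and Fbxw10 events name the same transcripts, each set against a different proximal form. In GFP these distal transcripts thus had 18 reads in the Fbxw10 event and 0 in the Trim16 event, so the Trim16 share does not show them absent from GFP. Their shares moved in opposite directions, and the events are not independent. Synj2, a phosphoinositide phosphatase, had a distal share of 33%, against 80%, and Adcy8, an adenylyl cyclase, 47%, against 93%. Cyp2u1 had 9%, against 47%. The Synj2 share rested on 5 distal and 10 proximal reads in SRSF5 knockdown, against 12 and 2 in GFP. Adcy8 had 6 and 6 such reads, against 29 and 1, and Cyp2u1 1 and 19, against 6 and 7. Rbms1, a single-stranded nucleic acid binding protein, had 59%, against 81%, from 68 distal and 48 proximal reads in SRSF5 knockdown, against 77 and 18 in GFP.

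In the cytoplasm, Crebrf, a regulator of the unfolded protein response, had a distal share of 27% in SRSF5 knockdown, against 79% in GFP. Acap1 had 97%, against 54%, and Pcm1, a protein of centriolar satellites, 17%, against 58%. These shares rested on few reads: Crebrf had 5 distal and 14 proximal reads in SRSF5 knockdown, against 12 and 3 in GFP. Acap1 had 23 and 0, against 7 and 5, and Pcm1 3 and 19, against 14 and 10. Pcm1 and Crebrf did not show their shift in whole cells, where Pcm1 had 15% in both and Crebrf 47%, against 43%. Igsf9b had 53%, against 21%, and Angptl2, an angiopoietin-like secreted protein, 44%, against 17%. Fam13b had 54%, against 84%, and Slc2a6, a hexose transporter, 27%, against 55%. The whole-cell shares also lay close together for the other genes named here. Acap1 had 36% there, against 31%, Igsf9b 94%, against 95%, Angptl2 45%, against 43%, Fam13b 57%, against 58%, and Slc2a6 35% in both.

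**Figure D5:**
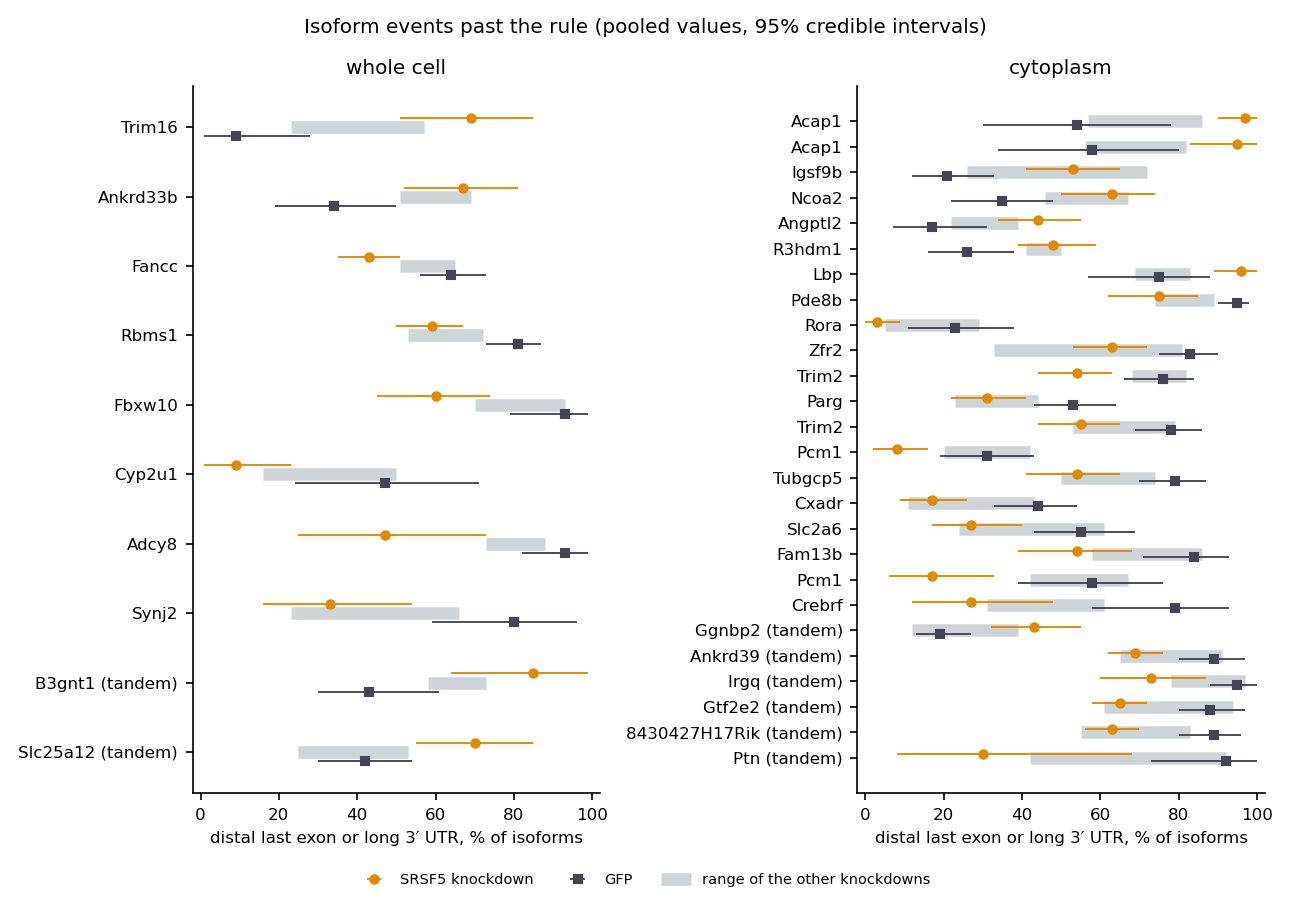
Share of the distal last exon, or of the long form in tandem 3′ UTR events (tandem), in percent of isoforms, for the events past the rule that are reported here and whose order is known, in whole cells (left) and cytoplasm (right); circles are SRSF5 knockdown and squares GFP with 95% credible intervals, and gray bars the range of the other knockdowns with a value, which are 4 for Trim16 and 6 elsewhere. Trim16 shows 69% in SRSF5 knockdown, against 9% in GFP, outside the gray bar.

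Tandem 3′ UTR events compare a short form, which ends at the end of the core region, with a long form that runs on through an extension. In whole cells both events that passed had more of the long form: B3gnt1, a glycosyltransferase, had 85% in SRSF5 knockdown, against 43% in GFP, and Slc25a12, the mitochondrial aspartate and glutamate carrier, 70%, against 42%. In the cytoplasm B3gnt1 had 64%, against 66%, and Slc25a12 41%, against 33%. Of the 6 cytoplasmic events only Ggnbp2 had more of the long form, at 43%, against 19%. Ptn, the growth factor pleiotrophin, had 30%, against 92%, with 2 reads in the extension in SRSF5 knockdown, against 21 in GFP.

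The other 4 cytoplasmic events rested on 107 to 281 extension reads a group and shifted to the short form by 20 to 26 points. Gtf2e2, a subunit of the general factor TFIIE, had 65% of the long form, against 88%, and Irgq 73%, against 95%. Ankrd39 had 69%, against 89%, and 8430427H17Rik 63%, against 89%. The median of the other knockdowns was 65.5% for Gtf2e2, 70% for Ankrd39 and 66.5% for 8430427H17Rik, close to the SRSF5 share in each. GFP lay above the other knockdowns for 8430427H17Rik, where they reached 83%. For Irgq their median was 87.5%, and the SRSF5 share lay below their range of 78% to 97%. In whole cells Ankrd39 had 96%, against 98%, and Irgq 52%, against 54%, so neither showed the shift there. Gtf2e2 had 80%, against 91%, in the same direction as in the cytoplasm, and 8430427H17Rik 76%, against 77%.

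The sequences below are the last 30 bases before the annotated ends of the core and of the extension in the 2 whole-cell events and in Ptn, the event with the widest tandem shift, with the polyadenylation hexamers AATAAA and ATTAAA in capitals. They are printed 5′ to 3′ on the strand of the gene and read from mm9. For B3gnt1, plus strand, they lie at chr19:5040917-5040946 (core) and chr19:5041102-5041131 (extension). For Slc25a12, minus strand, they lie at chr2:71112801-71112830 and chr2:71112326-71112355. For Ptn, minus strand, they lie at chr6:36665172-36665201 and chr6:36664928-36664957.
B3gnt1, core: gtttAATAAAatgaggcttttggaaagaaa
B3gnt1, extension: cattatgtaAATAAAcgaatgtcacaccca
Slc25a12, core: atcatgtaagAATAAAtgtactaaagttaa
Slc25a12, extension: aatcaaaAATAAAagcacaccaaaatgtct
Ptn, core: ataaagcagcAATAAAatataaatcattct
Ptn, extension: ggaaAATAAAacaagtgatgctgaATTAAA

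All 6 windows held AATAAA. Over the 1187 tandem events with coordinates, searched on the strand of the gene, AATAAA stood in 38.4% of core ends and 61.4% of extension ends, and ATTAAA without it in 14.6% and 17.0%. Of the 8 events that passed, the core end of Irgq and that of 8430427H17Rik held neither hexamer in the last 30 bases. A match of letters in this window is a description only.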

How the data were processed

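Poly(A)+ RNA of P19 cells, whole-cell or cytoplasmic, was sequenced by the authors as single-end reads of 75 or 85 bases. The submitters' processing notes name cutadapt, CASAVA 1.8.2, TopHat2 2.0.9 and 2.0.10, Bowtie2 2.1.0, Cufflinks 2.1.1 and the builds mm9 and mm10. The deposited gene and exon bin tables hold a signal, reads per gene or bin divided by a size factor of each library by the authors, called scaled reads here; 97.9% to 98.6% of low gene values were whole multiples of 1 read. The deposited transcript values are FPKM pooled over replicates, and the deposited MISO values are isoform shares, a fraction of 0 to 1 with credible bounds, printed here in percent and points. Deposited columns of fold changes, p-values, share differences and Bayes factors hold the authors' own comparisons and were not used. Coordinates of alternative last exon events were damaged in the deposited tables and are not printed.

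Members and gene lists were chosen with earlier results of these data known. Gene levels were tested with limma 3.58.1 (R 4.3.3) on log2(scaled reads + 1) after TMM scaling and edgeR's expression filter, with a variance trend over all 16 libraries of a fraction, Benjamini-Hochberg adjustment and a threshold of 0.05. Genes listed at 0 in a library, but with a median of at least 100 over their values above 0, were left out as failed estimates. There were 4 in whole cells and 7 in the cytoplasm, the latter including Alb, Spt1 and Scgb2b27. A true absence from a library was not told apart from a failed estimate. Exon bins averaging 5 scaled reads or more entered limma's diffSplice, at a threshold of 0.1. Since the tables hold a scaled signal, edgeR 4.0.16 and DESeq2 1.42.0 were run only as alternatives on recovered whole reads. Other alternatives were a pseudocount of 5, no filter, other scaling, fewer or more libraries, the letter block and each replicate left out. The gene and bin fits were also run on simulated counts with a fixed spread and no letter effect. These settings differ from the libraries, so that run does not bear on the error rates here. Sequences were compared with Biopython 1.88 in mm9.

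Same-lettered libraries deviated together: the correlation of the A minus B deviations was over 0.1 in all 28 pairs of groups, between 0.238 and 0.560 in whole cells and between 0.274 and 0.712 in the cytoplasm, and 0.323 and 0.568 for SRSF5 and GFP. The pairing comes from the letters in the labels.

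Named were Srsf5, the other SR genes, members of each list that passed or else those with the largest change, up to 10 called genes or bins per direction and fraction, genes past 1.5-fold in both letters of both fractions, and up to 8 isoform events per kind and direction; other genes were chosen after their values were seen. A few items that met these rules are not reported here.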

Additional observations from a re-analysis of the deposited data

How the results depend on the processing

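The whole-cell count of called genes was 1 with the replicate block, 1 in edgeR with the block, 1 with no filter (Gm20503), 1 in DESeq2 and 22 with only the 4 SRSF5 and GFP libraries and the block, a fit with few residual degrees of freedom; without 1 replicate it was 0. In the cytoplasm it was 78 with the 4 libraries and the block, 1 with no filter (Gm20458), 1 in DESeq2 and 0 to 1 without 1 replicate (Cers1, without SRSF5 letter B). Against the other knockdowns it was 6 in whole cells and 2 in the cytoplasm with the block, 0 without either SRSF5 replicate in whole cells, and 0 to 1 in the cytoplasm. The relative cytoplasmic level gave 0 to 1 without 1 replicate. Bins gave 0 to 17 in whole cells and 0 to 5 in the cytoplasm without 1 replicate, and in the cytoplasm 0 in edgeR and 8 with a pseudocount of 5. Over all 16 libraries, settings chosen after seeing the data, they gave 0, and 1 with the block (Lmnb1). A 10-point rule gave 25 and 75 last-exon and 8 and 15 tandem events in whole cells and cytoplasm, and no demand on intervals 156 and 267, and 15 and 26. Signs turned for whole-cell Srsf10 with only the 4 libraries (0.0014, with and without the block) and with DESeq2 size factors (0.00042), and for cytoplasmic Srsf12 in edgeR (0.023, with the block 0.045) and DESeq2 (0.020). Without 1 replicate the log2 change also crossed 0 in whole cells for Srsf2 (−0.13 to 0.57), Srsf3 (−0.11 to 0.38), Srsf4 (−0.11 to 0.34), Srsf6 (−0.10 to 0.53), Srsf9 (−0.16 to 0.27) and Srsf10 (−0.012 to 0.011), and in the cytoplasm for Srsf1 (−0.62 to 1.10), Srsf2 (−0.20 to 1.28), Srsf3 (−0.22 to 0.39), Srsf4 (−0.037 to 0.53), Srsf6 (−0.38 to 1.09), Srsf7 (−0.12 to 0.91), Srsf9 (−0.051 to 0.16), Srsf10 (−0.73 to 0.38), Srsf11 (−0.46 to 0.72) and Srsf12 (−0.37 to 0.28). The cause of these changes was not tested. The fits without 1 replicate had no letter block and so set libraries of different letters against each other. With 2 libraries a group, and estimates pooled by the authors for isoforms, smaller changes could not be detected.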
